A study of Homo sapiens with 6 samples.

Results

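Respiratory complex I is the NADH dehydrogenase of the mitochondrial inner membrane. It takes electrons from NADH, passes them through flavin and a chain of iron-sulfur clusters to ubiquinone, and pumps protons. Its L-shaped body has a matrix arm, which holds the NADH-oxidizing N module and the quinone-reducing Q module, and a membrane arm, which holds the proton pumps. Core subunits carry the cofactors and the pumps, accessory subunits surround and stabilize them, and assembly factors build the complex without remaining in it. The core of the membrane arm is encoded by mitochondrial DNA, and the other subunits are encoded by nuclear genes with symbols that begin with NDUF. The 7 mitochondrially encoded ND genes had no row in the table and are not analysed here.

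The genes described here were chosen by symbol. Of 19792 rows in the deposited gene table, 51 had a symbol beginning with NDUF, and 47 of these were kept. They comprise 39 genes of the subunit families and 8 NDUFAF assembly factors. The 4 rows left out are the antisense or divergent RNAs NDUFA6-AS1, NDUFB2-AS1 and NDUFV2-AS1 and the pseudogene NDUFAF4P1, at mean normalized counts of 8.98, 12.5, 3.20 and 1.42.

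RNA was from BT-549 cells, a triple-negative breast cancer line, carrying a doxycycline-inducible short hairpin RNA against WDR5, a scaffold protein of the COMPASS histone H3 lysine 4 methyltransferases. A total of 3 cultures received 0.1% DMSO as vehicle and 3 received 500 ng/ml doxycycline (DOX), which switches the hairpin on. All 6 cultures carry the hairpin, so in this design an effect of DOX itself and an effect of WDR5 silencing cannot be told apart. Whether the cultures came from 1 clone or from a selected pool was not given in the sources used here.

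The table analysed has no column of a single library. Its only measured level is the authors' mean normalized count of each gene over all 6 libraries, vehicle and DOX together, and its other columns hold the authors' own comparison of DOX with vehicle, which was not used. The values below are therefore levels in these cells averaged over both treatments. No difference between vehicle and DOX, no replicate spread and no p-value is given, and the depth of a library is unknown. An order of genes by level carries no error, so it is not said of neighbours in that order that they differ. In bulk RNA, a level does not separate the number of cells that express a gene from the RNA per cell.

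VIM, the mesenchymal intermediate filament of this line, had a mean normalized count of 47782, whereas ESR1 and PGR, which encode the hormone receptors absent from triple-negative cells, were at 0.790 and 0.801. ERBB2 was listed with ESR1 and PGR as a marker expected to be low, but it was at 1221. That is above the median count of 819 over 12163 coding genes with a mean of 10 or more. Receptor protein was not measured. The epithelial markers EPCAM and CDH1 were at 1.30 and 59.6, the leukocyte marker PTPRC was at 44.7 and the endothelial marker PECAM1 was at 2.86. WDR5, the targeted gene, had a mean of 1143 over the 6 libraries, a pooled value from which its silencing cannot be checked.

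A few of the members' promoters are printed first, to show letters that were searched in all of them and that the choice by symbol did not use. Shares for each set of letters stand beside it, for the members and for all coding genes with a promoter at hand, whatever their count. The sequences are the sense strand, 5′ to 3′, from RefSeq on GRCh38.p14, each 60 bases upstream of the start and outside annotated exons. Capitals mark a match, on either strand, to CGCATGCG, the palindromic core bound by NRF1, a regulator of nuclear respiratory genes, which 15.4% of the members' promoters and 3.40% of all promoters held. The windows are NDUFB4 at chr3:120596152-120596211 on the plus strand and NDUFA5 at chr7:123557942-123558001 on the minus strand.
NDUFB4: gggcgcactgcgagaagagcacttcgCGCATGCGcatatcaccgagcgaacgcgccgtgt
NDUFA5: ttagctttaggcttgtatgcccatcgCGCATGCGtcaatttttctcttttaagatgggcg

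The second set shows CCGGAAG, the core bound by ETS factors such as GABPA, on either strand, which 17.9% of the members' promoters and 16.9% of all promoters held. NDUFA1 lies at chrX:119871758-119871817 on the plus strand, NDUFB7 at chr19:14572067-14572126 on the minus strand and NDUFAF4 at chr6:96898006-96898065 on the minus strand. They represent the subunits and the assembly factors, and NDUFA1 was the second most abundant member per kb of transcript.
NDUFA1: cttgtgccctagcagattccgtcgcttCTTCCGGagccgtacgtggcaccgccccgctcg
NDUFB7: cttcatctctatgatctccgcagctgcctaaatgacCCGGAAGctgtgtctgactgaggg
NDUFAF4: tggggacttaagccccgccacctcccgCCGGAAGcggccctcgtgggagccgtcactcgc

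The last set shows CCAAT, the box bound by NF-Y, on either strand, which was rarer in the members' promoters, at 28.2%, than in all, at 36.5%. The promoter of NDUFAF2, the assembly factor with the highest count, holds the letters on both strands in chr5:60945086-60945145 on the plus strand. NDUFA12, the subunit that takes the place of NDUFAF2 late in assembly, holds them in chr12:95003838-95003897 on the minus strand.
NDUFAF2: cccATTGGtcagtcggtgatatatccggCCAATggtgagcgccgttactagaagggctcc
NDUFA12: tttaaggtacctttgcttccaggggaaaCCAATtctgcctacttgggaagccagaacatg

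All 47 members had a mean normalized count above 10. Counts ran from 32.8 for NDUFA4L2 to 4220 for NDUFS5, with a median of 1101, and together the members held 57156 normalized counts, or 0.215% of the sum over all genes. To compare genes, each mean was divided by the length of the canonical transcript in kilobases, and this quantity, the mean normalized count per kb of transcript, is the level given below. The median level of the members was 1067 counts per kb. The median of 12163 coding genes with a mean of 10 or more was 233 counts per kb, and 40 of the 47 members lay above it, against 28 of 47 above the median count when no length was used. The median member stood at the 85.3rd percentile of these genes, and 18 members were above their 90th percentile of 1526 counts per kb.

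**Figure D1:**
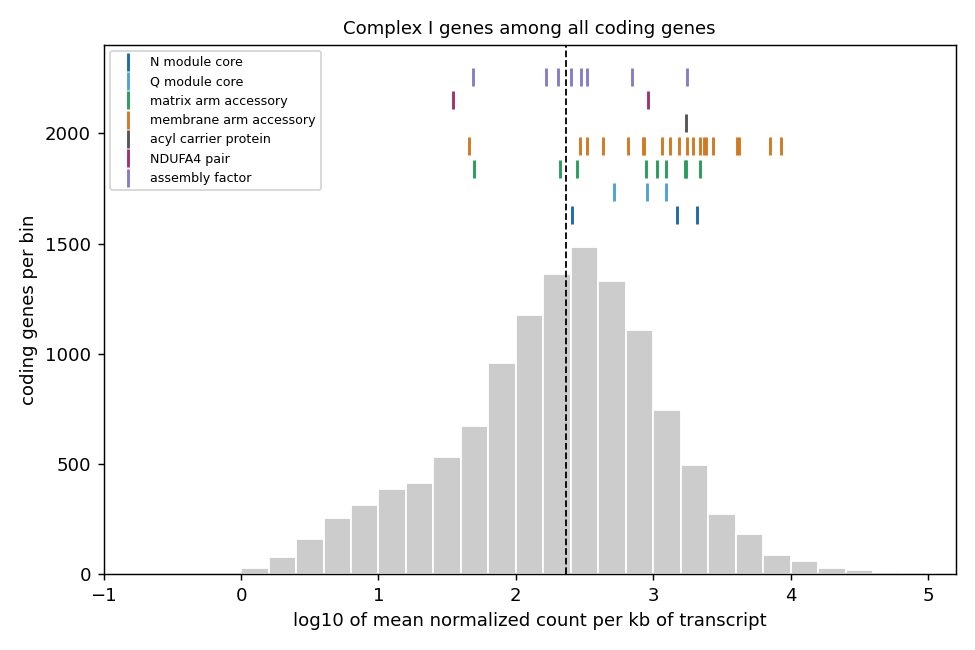
Grey bars count coding genes by log10 level, for genes at a count of 10 or more, and coloured ticks mark 46 complex I genes in a row for each role. The dashed line is the median of all genes, 233 counts per kb. All 6 core ticks lie to the right of the line, and the assembly factor ticks lie on both sides of it.

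The 3 nuclear core subunits of the N module oxidize NADH and had a median level of 1500 counts per kb. NDUFV2, which carries an iron-sulfur cluster, had a level of 2088 counts per kb, and NDUFV1, which binds NADH and the flavin, had a level of 1500 counts per kb. NDUFS1, the largest core subunit and the holder of several clusters, stood apart at a level of 256 counts per kb. The low level of NDUFS1 is not a low count. Its mean normalized count of 2980 was the highest of the module, against 2339 for NDUFV1 and 1789 for NDUFV2. Its canonical transcript has 11660 bases, of which 9371 are 3′ untranslated end. Per kb of coding sequence NDUFS1 had 1366 counts, NDUFV1 had 1681 and NDUFV2 had 2395. The gap between the highest and the lowest gene of the module thus narrowed from 8.17-fold per kb of transcript to 1.75-fold per kb of coding sequence.

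The 4 nuclear core subunits of the Q module lead electrons to ubiquinone and had a median level of 1069 counts per kb. NDUFS3 had a level of 1232 counts per kb and NDUFS8, which carries iron-sulfur clusters, of 906. NDUFS7, which holds the last cluster before the quinone, was the lowest of the module at a level of 521 counts per kb, with a count of 395. Per kb of coding sequence NDUFS3 had 1390 counts, NDUFS8 had 1060 and NDUFS7 had 618, in the same order as per kb of transcript.

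The 9 accessory subunits of the matrix arm had a median level of 1067 counts per kb, and 7 of them lay above the median of all coding genes. NDUFS6, a zinc-binding subunit added late in assembly, had the highest level at 2206 counts per kb. NDUFS4, a gene often mutated in Leigh syndrome, had a level of 1731 counts per kb, and NDUFA12 had a level of 1702 counts per kb. These 3 genes had like counts, of 1143, 1158 and 956. The low end of the class held NDUFA5 at a level of 281 counts per kb, NDUFA9, a nucleotide-binding subunit where the arms join, at 211, and NDUFV3, a peripheral subunit, at 49.5. The NDUFV3 transcript used for the lengths encodes 473 residues, so both of its scaled values rest on that long form. The transcripts of all 3 end in long untranslated stretches, of 5125, 7212 and 4281 bases. Per kb of coding sequence NDUFA5 had 4435 counts, the highest of the class, and NDUFA9 had 1561. NDUFV3 remained the lowest of the class on that scale, at 200 counts per kb of coding sequence. Of the 3 genes at the low end, NDUFV3 alone was low on both scales, and it was also the lowest of the class in count, at 283.

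The 20 accessory subunits of the membrane arm had a median level of 1651 counts per kb, and 19 lay above the median of all coding genes. NDUFS5, which lies on the intermembrane side, headed all members at a level of 8526 counts per kb, and its gene lies at chr1:39026318-39034636 in GRCh38. NDUFA1, an X-linked subunit needed early in building the membrane arm, followed at a level of 7048 counts per kb. NDUFB9, a LYR-motif subunit that binds the acyl carrier protein, had a level of 4213 counts per kb, or 3.42 times the subunit median, but it lay below that median by the longest transcript, at 0.981 times, and by the union of exons, at 0.478 times. NDUFA13, also known as GRIM-19, had a level of 4076 counts per kb. All 4 encode short transcripts, of 421 to 691 bases, and they were also high in count, between 2123 and 4220. NDUFB11, the other X-linked subunit, had a level of 1949 counts per kb. The median of this class was 1.55 times that of the matrix arm accessory class per kb of canonical transcript, but 0.734 times by the longest transcript and 0.995 times by the union of exons, and the median counts were 1141 and 1143, so the order of the accessory classes of both arms is not settled.

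At the low end of the membrane arm, NDUFB5 and NDUFA10, which has the fold of a deoxynucleoside kinase, had levels of 332 and 293 counts per kb with counts of 1392 and 1422. Their 3′ untranslated ends have 3610 and 3749 bases, and per kb of coding sequence they had 2455 and 1335 counts. NDUFC2, a subunit at the join of the arms, differed from them. Its count was only 98.3, its level was 45.3 counts per kb, and it stayed the lowest of the class at 275 counts per kb of coding sequence. The exons of NDUFC2 are shared on the same strand with the readthrough gene NDUFC2-KCTD14, which had no row in the table. How reads of shared exons were assigned is not given in the sources used here, so the count of NDUFC2 is uncertain.

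**Figure D2:**
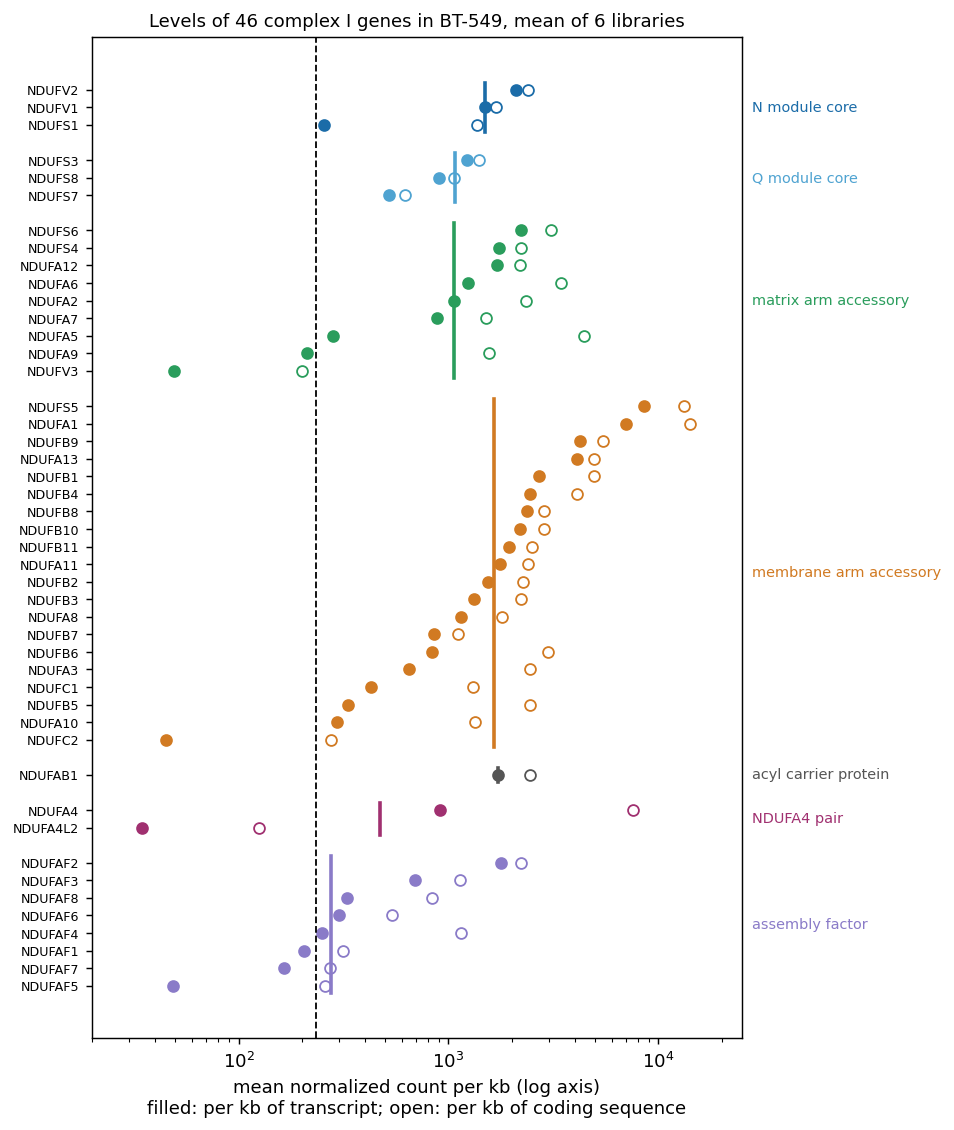
Each row is 1 of 46 complex I genes, with the mean normalized count per kb of transcript as a filled point and per kb of coding sequence as an open point, on a log axis. Vertical bars are class medians of the filled points and the dashed line is the median level of all coding genes, 233 counts per kb. The distance between the paired points is wide for NDUFS1, NDUFA5, NDUFA9 and NDUFA4 and narrow for NDUFV2, and NDUFV3, NDUFC2 and NDUFA4L2 are low on both scales.

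NDUFAB1, the mitochondrial acyl carrier protein that also serves in fatty acid and lipoate synthesis, had a level of 1723 counts per kb and a count of 1146. NDUFA4 was first assigned to complex I and is now placed in cytochrome c oxidase, and NDUFA4L2 is its hypoxia-inducible paralog. NDUFA4 had a level of 909 counts per kb and NDUFA4L2 of 34.8, a 26.1-fold gap. NDUFA4L2 was the lowest of all members on both scales and in count. Per kb of coding sequence NDUFA4 moved in the order of the members from the 25th to the 3rd place, at 7610 counts, since coding sequence makes up only 11.9% of its transcript.

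The 8 NDUFAF assembly factors had a median level of 275 counts per kb, and 5 of 8 lay above the median of all coding genes. The ratio to that median was 1.18, but it was below 1 by the longest transcript, by the union of exons and with no length used, where 1 of 8 lay above it. The subunits had a median level 4.48-fold that of the assembly factors, and 2.55-fold in count with no length used. NDUFAF2, which holds the place of NDUFA12 during assembly, had the highest level of the class at 1770 counts per kb, or 1.44 times the subunit median. By the longest transcript and by the union of exons it fell to 0.380 and 0.441 times that median, and NDUFAF3 was then the highest of the class. The ratio of NDUFAF2 to NDUFA12 was 1.04 in level, 1.17 in count and 1.39 by the union of exons. It was 1.004 per kb of coding sequence and 0.701 by the longest transcript. NDUFAF3 and NDUFAF4, which act together on the Q module, had levels of 695 and 251 counts per kb, but their counts were 626 and 604. NDUFAF5, which hydroxylates an arginine of NDUFS7, had a level of 48.9 counts per kb, and its partner NDUFAF8 had a level of 328 counts per kb. Their counts were in the opposite order, 267 for NDUFAF5 and 186 for NDUFAF8, and their transcripts have 5449 and 565 bases. NDUFAF6 had a level of 299 counts per kb, NDUFAF1 of 204 and NDUFAF7, an arginine methyltransferase, of 165. Apart from NDUFAF2, no assembly factor had a higher count than NDUFAF3.

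Other assembly genes whose symbols do not begin with NDUF gave a point of comparison. All 12 of the listed genes had a row, and their median level was 500 counts per kb, with 9 above the median of all coding genes. NDUFAF1 acts with ACAD9, ECSIT and TMEM126B in the complex that builds the membrane arm, and these had levels of 587, 211 and 1215 counts per kb against 204 for NDUFAF1. AIFM1, which imports complex I subunits with its partner but also acts in cell death, was the highest of the list at a level of 1888 counts per kb, and NUBPL, an iron-sulfur protein for the complex, was the lowest at 95.0.

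The nuclear genes of the other respiratory complexes were compared on the same scale. The median level was 1553 counts per kb for 4 genes of complex II, 1208 for 9 genes of complex III, 4087 for 10 genes of complex IV and 2214 for 15 genes of complex V, against 1233 for the 39 complex I subunits. Complex IV was thus 3.31-fold the subunits of complex I in median level, but 1.76-fold in count with no length used, where its median of 2006 lay below the 2050 of complex II and the 2223 of complex III. Complex III was 0.979-fold the subunits of complex I in level, which turned to 1.61-fold per kb of coding sequence. Over all 38 genes of complexes II to V the ratio was 1.45, and it was 1.82 per kb of coding sequence. Apart from NDUFA4 and NDUFA4L2, the subunits of complex I ranged over 188-fold in level, from NDUFC2 to NDUFS5. The range was 70.8-fold per kb of coding sequence and 42.9-fold in count, and the count of NDUFC2 is uncertain. The upper quartile of all 39 subunit genes was 3.64 times the lower quartile. ATP5F1E of complex V was listed at a count of 7.99, far below the other genes of its complex.

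**Figure D3:**
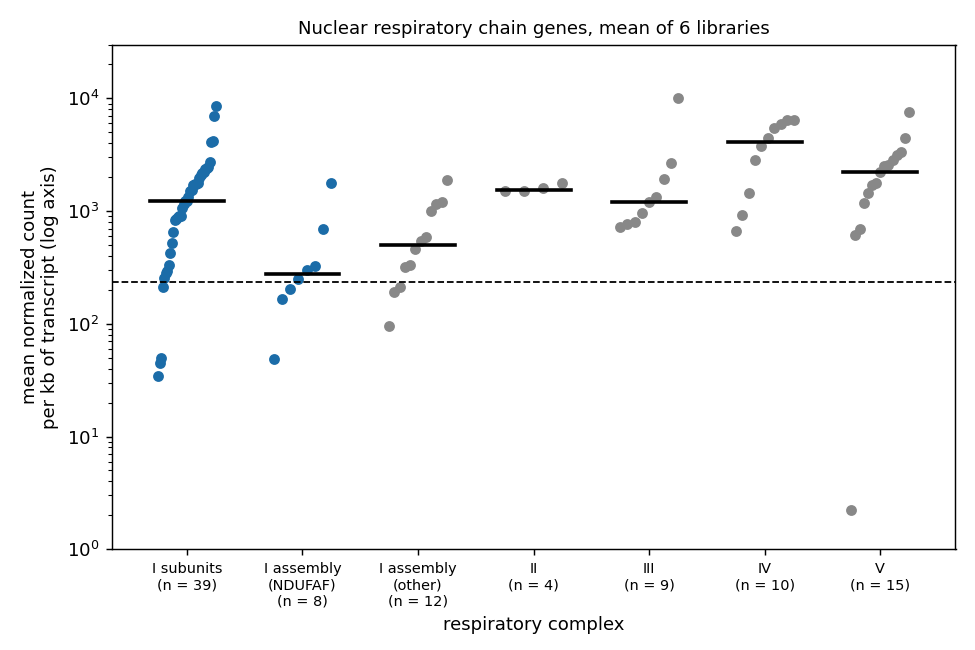
Points are genes, placed by level in mean normalized counts per kb of transcript on a log axis, with complex I in blue, and black bars are medians. The complex I subunits include NDUFA4 and NDUFA4L2. The dashed line marks the median of all coding genes at 233 counts per kb. The bar of complex IV, at 4087, is the highest on this scale, the bar of the NDUFAF assembly factors, at 275, is the lowest, and the lowest point is ATP5F1E.

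The order of the members by level depended on the length used. Between the level and the mean normalized count per kb of coding sequence, Spearman's rho was 0.78 over the 47 genes, and with the longest transcript, the union of exons and the undivided count it was 0.79, 0.71 and 0.64, a description of genes that share the same 6 libraries. The count was nearly unrelated to transcript length, with a rho of -0.05 over the members and of 0.14 over 12163 coding genes. Between the level and transcript length, rho was -0.71 over the members and -0.26 over the coding genes. The level is the count divided by that same length, and whether longer transcripts are also fewer in these cells was not tested. A total of 7 members have a 3′ untranslated end of over 3000 bases, namely NDUFS1, NDUFA5, NDUFA9, NDUFV3, NDUFB5, NDUFA10 and NDUFAF5. All 7 were below the members' median in level, and 5 of 7 were below it per kb of coding sequence. The level divides by a length that includes this end, so a low level is partly built in. With no length used, NDUFS1, NDUFA5, NDUFA9, NDUFB5 and NDUFA10 lay above the members' median count of 1101. Their counts were 2980, 1543, 1765, 1392 and 1422. NDUFV3 and NDUFAF5 lay below it, at 283 and 267. Which end of these transcripts the cells use was not measured.

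**Figure D4:**
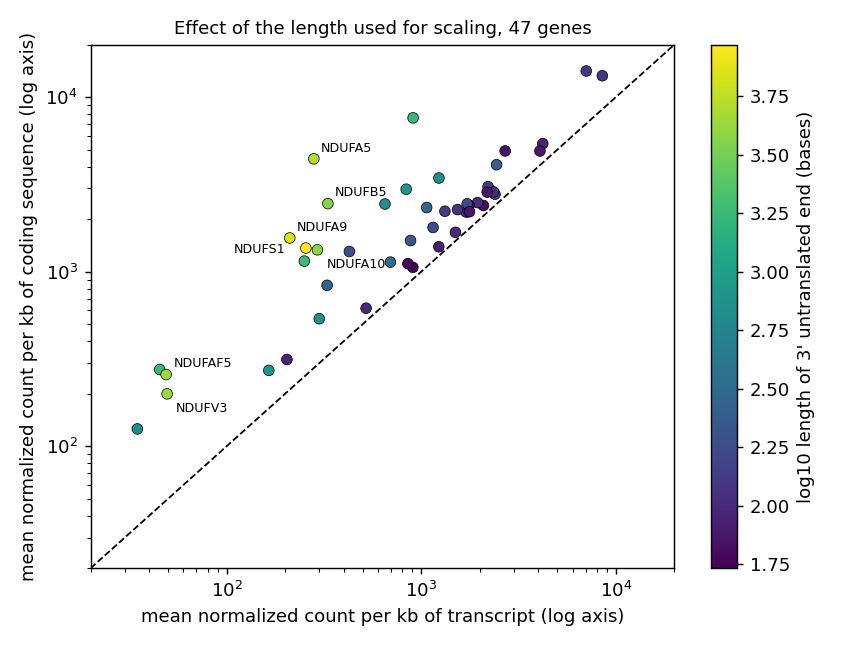
Each point is 1 of the 47 genes, with the mean normalized count per kb of transcript on the x axis and per kb of coding sequence on the y axis, both on log axes, and the dashed line marks equal values. Colour gives the log10 length of the 3′ untranslated end in bases, and the 7 genes with ends over 3000 bases are named. The points of long ends lie far above the line, with NDUFA5 at 281 and 4435 counts per kb.

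As a group the members have a compact build, which the choice by symbol did not use. Their canonical transcripts had a median of 758 bases against 3480 over 12163 coding genes, with 4 exons against 9. The proteins had a median of 156 residues against 479. The untranslated ends were short too, with a median of 41 bases at the 5′ end against 143 and of 185 bases at the 3′ end against 1389. The assembly factors were longer than the subunits, with median transcripts of 1652 and 696 bases. Single members depart from the compact build, such as NDUFS1 with 11660 bases. Short transcripts are also not particular to complex I. Their median was 1058 bases over complexes II to V, with 1323.5 for complex II, 1573 for III, 659.5 for IV and 995 for V. The genes lie on 22 chromosomes, and chromosome 19 holds most, with 6 members or 12.8% against 7.47% of all coding genes.

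Many members start near a coding gene on the opposite strand, and whether such pairs share a promoter was not tested. The start of a coding gene on the opposite strand, pointing away, lay within 1000 bases of the start of 17 of 47 members, or 36.2%, against 13.1% of 12163 coding genes. The partners were not alike in level. The start of NDUFB9 lay 38 bases from that of TATDN1, with levels of 4213 and 2195 counts per kb. NDUFA1 lay 99 bases from RNF113A, with levels of 7048 and 417. NDUFAF7 lay 62 bases from CEBPZ, with levels of 165 and 819, and NDUFA9 lay 63 bases from AKAP3, a sperm protein gene, with levels of 211 and 6.32. NDUFB5 was paired with MRPL47, which encodes a mitochondrial ribosomal protein, at 156 bases, with levels of 332 and 1426 counts per kb. In NDUFB9, NDUFA1 and NDUFA9 the complex I gene had the higher level, and in NDUFAF7 and NDUFB5 its neighbour had it. These 5 pairs were chosen after their values were seen.

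RefSeq promoters, from 250 bases before to 50 bases after the start, were at hand for 39 of the 47 members and for 12457 coding genes of the table. The NRF1 letters CGCATGCG were found, on either strand, in 6 of the 39 promoters, or 15.4%, against 3.40% of all. The members were NDUFB4 and NDUFA5, printed above, with NDUFS7, NDUFS6, NDUFA8 and NDUFAF5. Before the start they were found in 4 of 39, or 10.3%, against 3.05%. The members with these letters had a median level of 836 counts per kb and those without them of 1232 counts per kb. This is not particular to NRF1, since the other letters searched went the same way. The medians with and without were 767 and 1232 for YY1, 854 and 1192 for ETS, 1151 and 1203 for SP1, and 1067 and 1191 for CCAAT. Of the 6 genes, NDUFA5 and NDUFAF5 have 3′ untranslated ends of 5125 and 4373 bases. A relation of the letters to level was not tested.

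The letters AAGATGGC, a core bound by YY1, were found in 8 promoters, or 20.5%, against 4.81% of all. None of the 39 held them before the start, against 1.53% of all promoters. The 8 matches began 10 to 26 bases after the start, counted from 1 at the first transcribed base, and all were on the sense strand. In 7 of the 8, namely NDUFS7, NDUFS4, NDUFA6, NDUFA7, NDUFA9, NDUFB8 and NDUFA3, the ATG within the letters was the annotated start codon, and in NDUFAF8 it was not. The matches thus span the start of translation in these 7 genes. The searched window ends 50 bases after the start, and the median 5′ untranslated end is 41 bases in the members against 143 over 12163 coding genes. The window therefore reaches the start codon more often in the members, and the 2 shares are not like for like. Whether this accounts for the higher share was not tested.

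The other letters stood near or below their share in all promoters. The ETS letters CCGGAAG were found in 7 of 39, or 17.9%, against 16.9%, the SP1 letters GGGCGG in 25 of 39, or 64.1%, against 69.0%, and CCAAT in 11 of 39, or 28.2%, against 36.5%. Matches to different letters overlapped in a single promoter, between ETS and SP1. The members' promoters had a median GC content of 61.3% against 65.3%, and a median of 23 CpG sites against 26. These are matches of letters and do not show that a factor binds.

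**Figure D5:**
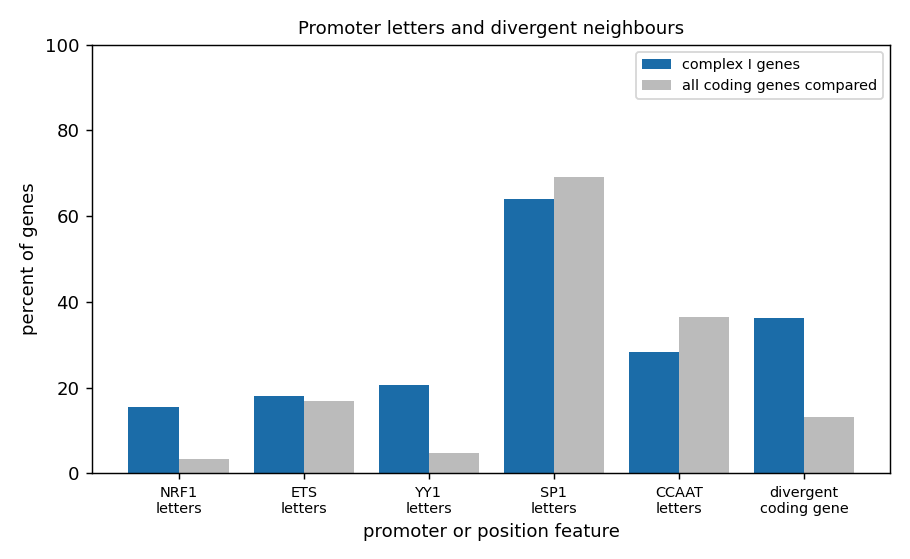
Blue bars give the percent of complex I genes and grey bars the percent of all coding genes compared, for each set of promoter letters (39 and 12457 promoters) and for a divergent coding gene within 1000 bases (47 and 12163 genes). The blue bar is the higher for NRF1, YY1 and divergent neighbours, and the lower for SP1 and CCAAT. All YY1 matches of the complex I genes lie after the start.

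Some counts may be shared with other genes. Pseudogenes named after them exist for 21 members, 63 in all, with 12 each for NDUFA5 and NDUFB4, 6 for NDUFS5 and 5 for NDUFA3, and their reads could be split or lost in counting. Exons of 9 members overlap another gene on the same strand, and exons of 12 lie opposite another gene. The library kit marks strand, but the strand setting of the counting is not given in the sources used here. Neither kind of overlap was present for 30 members.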

How the data were processed

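BT-549/tet-WDR5shRNA cells were analysed by RNA-seq in 2 groups of 3 cultures, vehicle (0.1% DMSO) and DOX (500 ng/ml), grouped by the sample titles. Stranded poly(A) libraries were made. The submitters' processing notes name STAR, DESeq2 and GRCh38. The paper's methods add a suffix to the name of the build, which may be an annotation release. The counter, tool versions and low-count filter are not given in the sources used here. RNA was extracted with a column kit per the labels and with Trizol per the paper's methods.

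The only level in the deposited table is a signal, the mean of the authors' DESeq2-normalized counts across the 6 libraries, and its sum over 19792 genes is 26551206. The other deposited columns hold the authors' comparison of DOX with vehicle (log2 fold change, its standard error, Wald statistic, p-value and adjusted p-value). None was used. Depth per library is unknown, and no interval is given.

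Symbols were matched to GENCODE 44 (GRCh38), 17729 directly and 580 through older symbols listed in RefSeq, with 1483 unmatched. Means were divided by the length of the canonical transcript in kb (1000 bases). Coding genes with a mean of at least 10 formed the comparison set of 12163 genes. Divergent genes start within 1000 bases on the opposite strand. Promoters of 300 bases are from RefSeq (GRCh38.p14), and all 39 members' promoters matched the genome. Alternatives were another length, no length, another minimum and another promoter window. Python 3.11.15, pandas 2.3.3, numpy 2.4.6, scipy 1.17.1 and matplotlib 3.10.9 were used, and the scaling, exon union, percentile and motif search were tested on simulated data.

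Genes named in the text are core subunits, the 3 highest and 3 lowest accessory subunits of each arm by level, all assembly factors, NDUFA4, NDUFA4L2, NDUFAB1, NDUFB11, the NDUF rows left out, and WDR5, and others are named where a count or comparison needs them. NDUFA13 is described beyond this rule. The members and lists were chosen with earlier results of these data known. A single member is counted in the totals and class medians but is not reported here by name or plotted by role.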

Additional observations from a re-analysis of the deposited data

How the results depend on the processing

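The values rest on 1 pooled mean per gene. No paired analysis was possible because the table has no column of a single library, and for the same reason the planned edgeR and DESeq2 fits, other size factors, an unfiltered fit and leaving out each replicate were not run. Of 71 alternatives over the class, complex and promoter ratios and the median percentile, 51 lay within 1.5 times the value given and 20 did not. The tally of 51 is not a measure of stability, since some settings could hardly move. Leaving out members with a count under 10 removed no gene, and another minimum scales all class ratios alike. The median percentile counted as within 1.5 times although it went from 85.3 to 64.8 by the union of exons and 58.2 with no length scaling. Single genes were less stable: of the 47 levels relative to the subunit median, 36 moved beyond 1.5 times by the longest transcript, 32 by the union of exons, 28 with no length scaling and 27 by coding length. Coding length was added after seeing the data. The ratio of a class median to that of all coding genes was 6.44 for the N module core, and 3.26 by the union of exons, 2.86 with no length scaling and 3.18 by coding length. For the Q module core it was 4.59, and 1.38, 1.08 and 2.32 in the same order, with 1.36 by the longest transcript. For the matrix arm accessory class it was 4.58, and 2.59 by the union of exons, 1.40 with no length scaling and 4.37 by the longest transcript. For the membrane arm accessory class it was 7.09, and 2.58 by the union of exons, 3.21 by the longest transcript, which puts it below the matrix arm class, 1.39 with no length scaling and 4.67 by coding length. With no length scaling and by coding length, NDUFAB1 moved from 7.40 to 1.40 and 4.63, and the NDUFA4 pair from 2.03 to 1.15 and 7.31. The assembly factors moved from 1.18 to 0.548 with no length scaling, and also fell below all coding genes by the union of exons (0.837), by the longest transcript (0.972) and against genes at 50 or more (0.989). Complexes II to V over all complex I members went from 1.67 to 3.003 by the union of exons. The ratio of promoter shares with the YY1 letters went from 4.27 to 0 when only bases before the start were searched. With the ETS letters the ratio went from 1.06 to 0.897, below 1, against coding genes at 10 or more. The cause was not tested, other than that each alternative changes the length, the promoter window or the set of genes compared.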
